A study of Mus musculus with 4 samples.

Results

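Tbx2, Tbx3, Tbx4 and Tbx5 are the T-box transcription factor genes of the Tbx2 subfamily, and their promoter regions were followed here for Ring1B in mouse embryonic fibroblasts. Their members were taken as every probe whose gene name in the array annotation is one of these 4 names. That gave 171 of 474380 non-control probes: 40 for Tbx2, 45 for Tbx3, 45 for Tbx4 and 41 for Tbx5. The series measured Ring1B by chromatin immunoprecipitation on promoter arrays (ChIP-on-chip) in wild-type fibroblasts and in fibroblasts homozygous for Phc2 L307R. Both cultures came from C57BL/6 embryos of embryonic day 12.5 and were at passage 2. The labels name no further allele or agent, and do not say how many embryos went into a culture. A fibroblast culture from embryos is a mixture of cells of different body positions, and no expression values come with these arrays to set against fibroblast markers. Ring1B-bound DNA (Cy5) and input DNA (Cy3) shared an array, with no dye swap.

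The subfamily lies in the genome as linked pairs, Tbx2 beside Tbx4 and Tbx3 beside Tbx5, as in other vertebrates. Tbx2 and Tbx3 are known mainly as repressors, of cell cycle inhibitors and, in the heart, of chamber genes. Tbx4 and Tbx5 are known mainly as activators, with Tbx5 needed for the forelimb and the heart and Tbx4 expressed in the hindlimb. Ring1B is the catalytic subunit of Polycomb repressive complex 1 (PRC1), which ubiquitinates histone H2A and keeps developmental regulators silent. Phc2 is a polyhomeotic subunit of PRC1 whose SAM domain forms polymers, and the series title ties that polymerisation to PRC1 clustering and silencing. The comparison therefore asks how much Ring1B each T-box promoter carries with and without the substitution in Phc2.

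Levels are given as log2 of the immunoprecipitate over input, centred on each array's median, so that 0 is the typical probe and 1 is a 2-fold enrichment over it. The level of a gene is the mean of its highest window of 3 neighbouring probes within 2000 bp, and the error is the SD over those probes. A window at 1 or more was counted as bound. The arrays came as 2 designs that share 0 probes, with 1 array per genotype on each, so no value has a replicate and no p-value was computed. A promoter was instead called lower or higher in Phc2 L307R where its window differed by 1 or more and its 3 probes all lay on one side. Probe noise was taken as the SD of differences between successive probes of a gene, divided by the square root of 2. It was 0.40 to 0.46 on the wild-type arrays and 0.49 to 0.50 on the Phc2 L307R arrays. The input channel was well above background at 85.7% and 86.7% of wild-type probes and at 75.0% and 76.3% of Phc2 L307R probes. Wild-type and Phc2 L307R arrays were scanned on different days, so scan day and genotype cannot be told apart. The deposited value tables hold wild-type values that differ from the scanner's, with a correlation across probes of 0.854 (design 1) and 0.890 (design 2). Differences are therefore given from both sources.

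The probes lie on chromosomes 11 and 5. In the coordinates of the array annotation, whose genome build the sources used here do not name, Tbx2 was tiled over chr11:85643569-85651794 and Tbx4 over chr11:85700937-85708693, with 49.1 kb between them. Tbx3 was tiled over chr5:119926046-119934499 and Tbx5 over chr5:120089835-120097745, with 155 kb between them. No other gene name had probes between the genes of either pair. Tbx2 and Tbx4 are on design 2 and Tbx3 and Tbx5 on design 1, so gene pair and array design cannot be told apart. Of the 4 genes, RefSeq's promoter table holds Tbx4 (GRCm38.p6, chr11:85896515-85896814, plus strand, from 250 bases before to 50 bases after the start). It is shown because CpG-rich promoters are the usual sites of PRC1, and the capitals mark its CG dinucleotides.
Tbx4: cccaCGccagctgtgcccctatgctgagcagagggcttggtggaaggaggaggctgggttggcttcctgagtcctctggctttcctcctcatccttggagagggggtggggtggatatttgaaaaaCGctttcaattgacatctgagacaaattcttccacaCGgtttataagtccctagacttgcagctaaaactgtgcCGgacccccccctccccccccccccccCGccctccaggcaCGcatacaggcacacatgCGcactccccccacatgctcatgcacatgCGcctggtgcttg
It holds 8 CG in 300 bases, against a median of 7 over 32851 promoters, at 59.0% G and C and an observed over expected CG ratio of 0.314. The motif TATAA, searched on both strands, was found in it and in 24.9% of all promoters. The T-box motif GGTGTGA was found in 3.98% of all promoters and its core GGTGT, which lies within it, in 41.6%, and neither stands in this window. Because the builds differ, the place of these bases within the tiled region was not determined. Of array promoters matched by symbol, 1138 had a RefSeq window (the richest where a gene has several) within 2 CG of this number. Their median wild-type Ring1B window was 0.54 and 1.49% reached 3 or more. Over all 10269 promoters matched by symbol that share was 1.64%.

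All 4 genes were bound in both genotypes, and each stood among the highest promoters on the arrays. The background is wide: of 17649 promoters, 45.4% were bound on the wild-type arrays and 39.3% on the Phc2 L307R arrays. In wild type the order of the windows was Tbx4 (3.76 ± 0.23), Tbx2 (3.74 ± 0.91), Tbx3 (2.65 ± 1.01) and Tbx5 (2.37 ± 0.26), each an SD over 3 probes. Tbx4 and Tbx2 ranked 157 and 161 of 17649, while Tbx3 and Tbx5 ranked 437 and 697. The 2 genes of a pair did not differ beyond the spread of their probes: Tbx2 was 0.02 below Tbx4, and Tbx3 was 0.28 above Tbx5. In Phc2 L307R the order was Tbx4 (3.24 ± 0.21), Tbx5 (2.72 ± 0.39), Tbx2 (2.67 ± 1.19) and Tbx3 (2.37 ± 0.29). Tbx4 kept the highest place, though within the spread of the Tbx2 probes, and the other 3 lay within the spread of their probes.

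**Figure D1:**
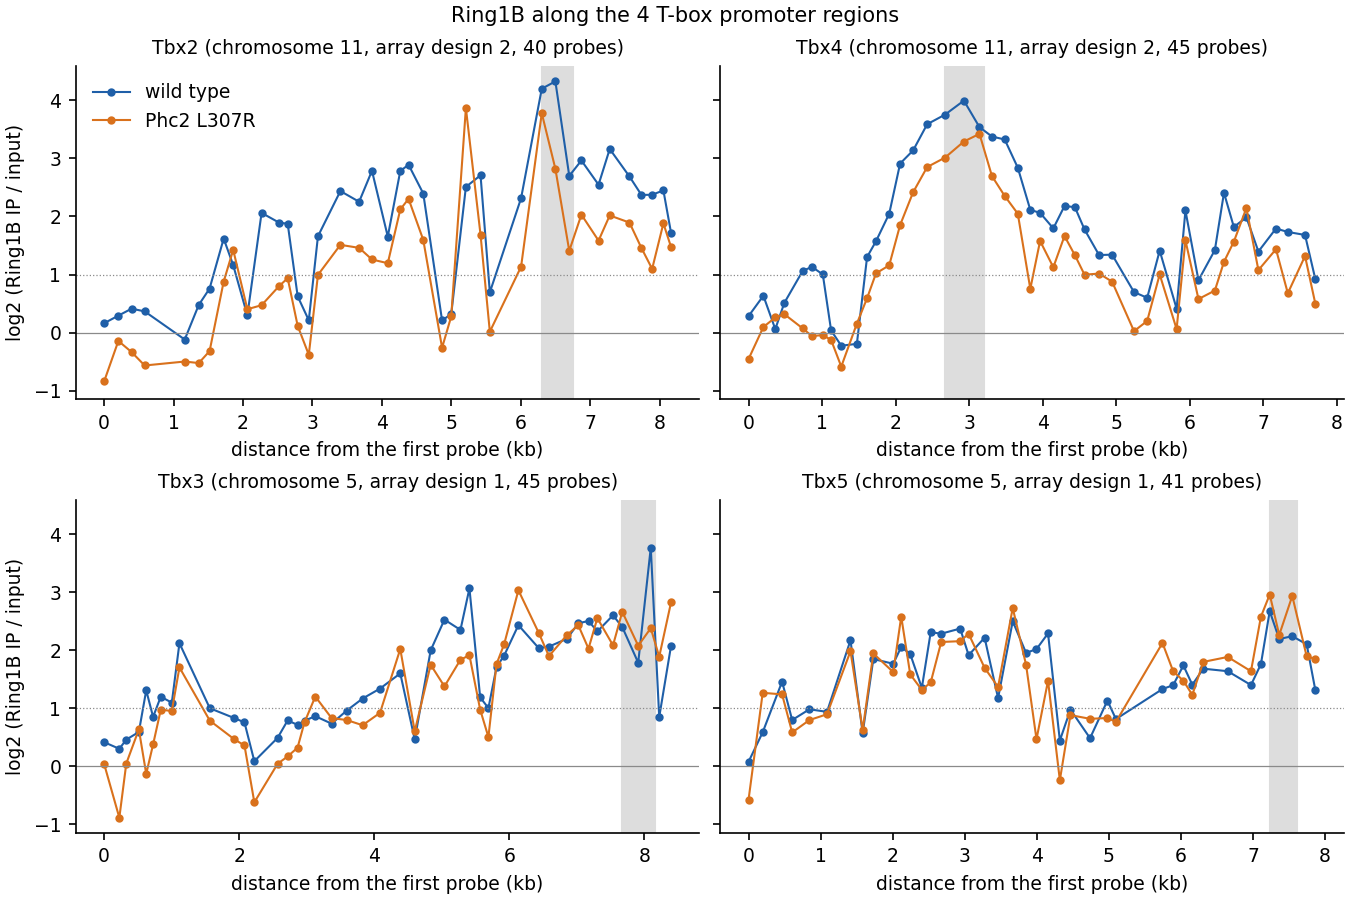
Ring1B along each gene's probes, with distance from the first probe in kb on the x axis and log2 immunoprecipitate over input on the y axis, wild type in blue and Phc2 L307R in orange. The grey band is the window used and the dotted line is 1; at Tbx2 and Tbx4 the orange line runs below the blue at 37 of 40 and 42 of 45 probes, while at Tbx5 the lines cross repeatedly.

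Tbx2, a repressor that acts on cell cycle inhibitors, was the only one of the 4 genes called lower in Phc2 L307R. The 3 probes of its window (chr11:85649873-85650321) read 4.20, 4.33 and 2.70 on the wild-type array and 3.78, 2.82 and 1.41 on that of Phc2 L307R. All were lower in Phc2 L307R, by 0.42 to 1.51. The window difference was -1.07 ± 0.57 (SD over 3 probes), or 2.10-fold less. Lower calls were made at 3.01% and higher calls at 1.64% of the 8997 promoters bound in either genotype. Of the 4432 bound promoters of design 2, 1.67% had a difference as low as Tbx2. Lower calls were more common at high levels. Among the 167 promoters of design 2 at 3 or more in either genotype, 25 were called lower and 9 higher. The first probe of the window was dim, with input signals of 463 (wild type) and 134 (Phc2 L307R). With probes well above background only, the window was chosen anew and its difference was -1.25. The call was lost with loess within arrays (-0.87) and for the mean over all probes (-0.73). The value was -1.69 with normexp background correction and -2.38 in the value tables.

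The lower level at Tbx2 was not limited to the window. Over all 40 probes the wild-type values had a median of 1.98 (-0.12 to 4.33), while those of Phc2 L307R had a median of 1.16 (-0.84 to 3.87). Of these probes, 37 were lower in Phc2 L307R, 12 of them by 1 or more, and the median difference was -0.79 (SD 0.53). All 26 probes that were well above background in every channel were lower. Ring1B climbed along the tile, from a mean of 0.31 in the first kb to 3.30 in the stretch from 6 to 7 kb in wild type, and from -0.47 to 2.23 in Phc2 L307R. The difference was already -0.78 ± 0.25 (SD, 4 probes) in the first kb, where neither genotype was bound, and -1.07 ± 0.41 (5 probes) in the highest stretch. Single probes dipped in both genotypes, as at 4868 and 5000 bp from the first probe, so the profile of peaks and dips was shared (r = 0.892 across 40 probes of the same arrays). The longest run of probes at 1 or more had 12 probes over 2220 bp to the end of the tile in both genotypes, so the bound region may run past the last probe.

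Tbx3, a repressor needed for limb, mammary gland and conduction system development, differed little as a whole and unevenly along its length. The 3 probes of its window (chr5:119933718-119934199) read 2.40, 1.78 and 3.77 on the wild-type array and 2.66, 2.08 and 2.38 on that of Phc2 L307R. The other two were higher and the last was lower in Phc2 L307R, and the window difference was -0.28 ± 0.96. That last probe had a wild-type input signal of 107 and was not well above background in every channel. The other probes of the window differed by +0.26 and +0.29. With probes well above background only, the window was chosen anew and its difference was -0.01. The window highest in Phc2 L307R alone was centred 1704.5 bp away and gave +0.35, a change of sign. No call was made on the scanner values, whereas the value tables gave -1.13 for their own highest window and -0.90 for these same probes.

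Over its 45 probes the Tbx3 values ran from 0.09 to 3.77 in wild type (median 1.20) and from -0.89 to 3.03 in Phc2 L307R (median 0.98). Of these, 30 were lower and 15 higher in Phc2 L307R, with a median difference of -0.22 (SD 0.53). Of its 19 probes with a mean level below 1, 16 were lower (median -0.40), against 5 of the 12 at 2 to 3 (median 0.13). The stretch from 5 to 6 kb was also lower, with a mean of 1.96 ± 0.74 in wild type and a difference of -0.47 ± 0.53 over 7 probes. From 6 to 8 kb the genotypes ran together, with 2.18 and 2.37 in the first of these kb and 2.35 and 2.31 in the next. The longest wild-type run at 1 or more had 19 probes over 3319 bp. That of Phc2 L307R had 15 probes over 2644 bp, and it reached the end of the tile.

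Tbx4, the hindlimb activator, had the clearest single peak of the 4 genes. The probes of its window (chr11:85703610-85704136) read 3.75, 3.99 and 3.54 on the wild-type array and 3.01, 3.29 and 3.42 on that of Phc2 L307R. All were lower in Phc2 L307R, and the difference of -0.52 ± 0.35 stayed short of the size rule. Of the bound promoters of design 2, 15.9% had a difference as low. Among those at 3 or more in either genotype, the median difference was -0.28 and the lower quartile -0.83. In wild type 7 successive probes over 1296 bp stood at 3 or more, against 3 probes over 527 bp in Phc2 L307R. The run at 1 or more was 20 probes over 3381 bp in wild type, against 11 probes over 1977 bp. The shorter run ended at a single probe of 0.75 at 3831 bp. Past it, the probes from 3964 to 4437 bp stood at 1.13 to 1.66 in Phc2 L307R. The summit itself stayed in place, with the highest windows of the genotypes 228 bp apart. The difference was smaller with loess within arrays (-0.25) and larger with normexp (-0.87) and after scaling the arrays to one spread (-0.90). The value tables gave -2.02, and the gene was called lower there.

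As at Tbx2, the lower values at Tbx4 covered the whole tile. Over its 45 probes the wild-type values ran from -0.23 to 3.99 (median 1.68) and the Phc2 L307R values from -0.59 to 3.42 (median 1.02). Of these, 42 were lower in Phc2 L307R, 6 of them by 1 or more, with a median difference of -0.55 (SD 0.37). The means per kb were lower in each of the 8 stretches of 1 kb, by 0.44 to 0.79. The largest of these differences was at 2 to 3 kb, where the peak rises (3.48 ± 0.45 against 2.69 ± 0.56, 5 probes). The first kb already differed by -0.58 ± 0.52 (6 probes), and its mean level was below 1 in both genotypes. Its probes at 738 and 863 bp nevertheless read 1.06 and 1.13 on the wild-type array, so it was not wholly unbound there. They had the lowest differences of this kb (-0.99 and -1.19), while its other probes differed by -0.74 to 0.20.

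Tbx5, the forelimb and heart activator, was not lower in its window on the scanner values. The probes of its window (chr5:120097067-120097439) read 2.67, 2.19 and 2.24 on the wild-type array and 2.96, 2.26 and 2.93 on that of Phc2 L307R. All 3 were higher in Phc2 L307R, by 0.07 to 0.69, and the difference of +0.35 ± 0.32 stayed short of the size rule. The sign turned with normexp (-0.07), for the mean over all probes (-0.04) and in the value tables (-1.34 for their own highest window and -0.20 for these same probes). Both outer probes of the window were not well above background in every channel.

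The 41 probes of Tbx5 ran from 0.08 to 2.67 in wild type (median 1.68) and from -0.58 to 2.96 in Phc2 L307R (median 1.62), so the middle of the distribution hardly moved. Of these, 23 were lower and 18 higher in Phc2 L307R, with a median difference of -0.05 (SD 0.47). No probe reached 3 in either genotype, yet 31 stood at 1 or more in wild type and 30 in Phc2 L307R, which gave Tbx5 the largest bound share of the 4 genes in both genotypes (75.6% and 73.2%). The corresponding counts were 27 and 22 for Tbx2, 28 and 22 for Tbx3 and 33 and 24 for Tbx4. Raised stretches lay from 2 to 4 kb and from 7 to 8 kb. The first of these had wild-type means per kb of 2.01 ± 0.36 and 1.96 ± 0.44, against 1.83 ± 0.46 and 1.72 ± 0.78 in Phc2 L307R. The second was at 2.05 ± 0.47 in wild type and 2.41 ± 0.49 in Phc2 L307R.

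**Figure D2:**
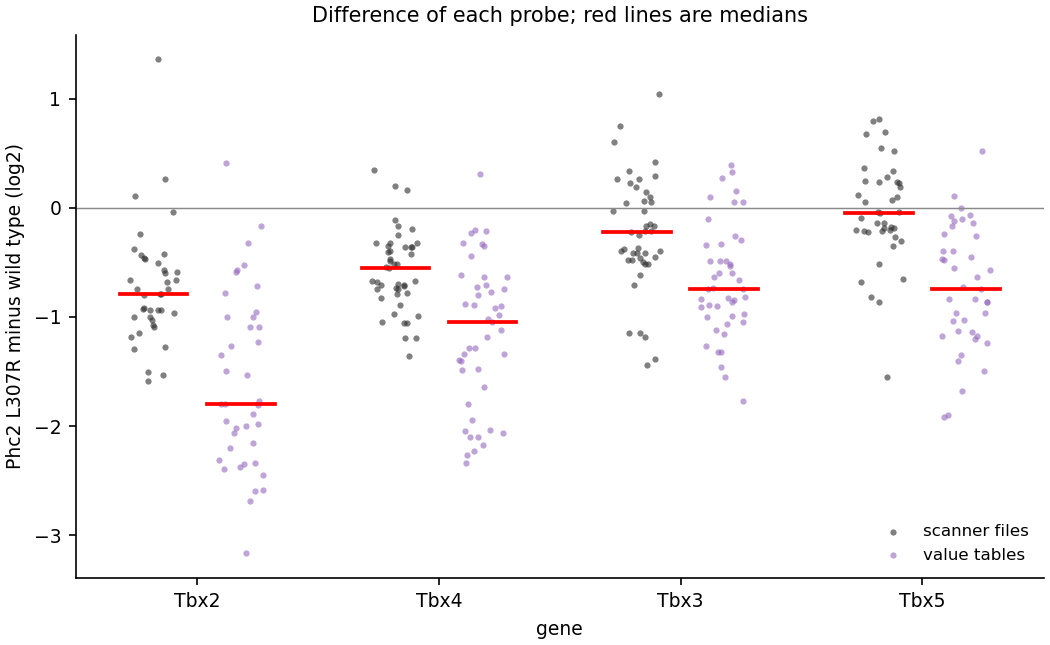
Difference of each probe, Phc2 L307R minus wild type in log2, by gene, from the scanner files (black) and from the value tables (purple), with medians as red lines. The scanner medians are -0.79 for Tbx2, -0.55 for Tbx4, -0.22 for Tbx3 and -0.05 for Tbx5, and the table medians are lower for all 4.

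Counted over all probes, the pairs stood apart on the scanner ratios, though not with normexp, where Tbx4 lay with Tbx3 and Tbx5. At Tbx2 and Tbx4 together 79 of 85 probes were lower in Phc2 L307R, and at Tbx3 and Tbx5 together 53 of 86. As a background, 90% or more of the probes were lower at 8.54% of the 609 gene names with at least 20 probes and a probe median of 1 or more in either genotype. Tbx2 and Tbx4 were past that mark, at 92.5% and 93.3%. Their median probe differences stood at 4.22% and 12.3% from the low end of the 308 such names of design 2. Tbx3 and Tbx5 stood at 41.5% and 61.1% of the 301 names of design 1. The median of these names was -0.15 on design 2 and -0.14 on design 1. Whether the contrast between the pairs comes from the array design was not tested, as gene pair and array design cannot be told apart. Most named probes had a mean level below 1, so centring on the array median largely set their median difference near 0. It is no separate background. It was -0.06 over the 201397 such probes of design 2 and -0.05 over the 203089 of design 1. The corresponding medians were -0.59 for 13 probes of Tbx2, -0.41 for 16 of Tbx4, -0.40 for 19 of Tbx3 and -0.10 for 11 of Tbx5, so at this level Tbx3 lay with Tbx4. The probes of a gene share their sample, array and DNA fragments and are not replicates. With normexp the share of lower probes was 90% at Tbx2, 75.6% at Tbx4, 71.1% at Tbx3 and 70.7% at Tbx5. The median probe differences were then -0.31, -0.18, -0.24 and -0.17 in the same order.

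In the value tables the genes differed in size, not in sign. Lower values in Phc2 L307R were found at 39 of 40 probes of Tbx2, 44 of 45 of Tbx4, 38 of 45 of Tbx3 and 39 of 41 of Tbx5. The median probe differences were -1.80, -1.04, -0.74 and -0.75, so by this measure Tbx4 lay nearer to Tbx3 and Tbx5 than to Tbx2. The window differences were -2.38 and -2.02 at Tbx2 and Tbx4, and -1.13 and -1.34 at Tbx3 and Tbx5. All 4 genes were called lower there, but so were 73.7% of the 575 promoters that reached 3 or more in either genotype in those tables. The tables' Phc2 L307R values matched the scanner's at these windows, at 2.67, 2.37, 3.24 and 2.72 for Tbx2, Tbx3, Tbx4 and Tbx5. The wild-type values were higher than the scanner's, at 5.05, 3.28, 5.27 and 2.92.

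**Figure D3:**
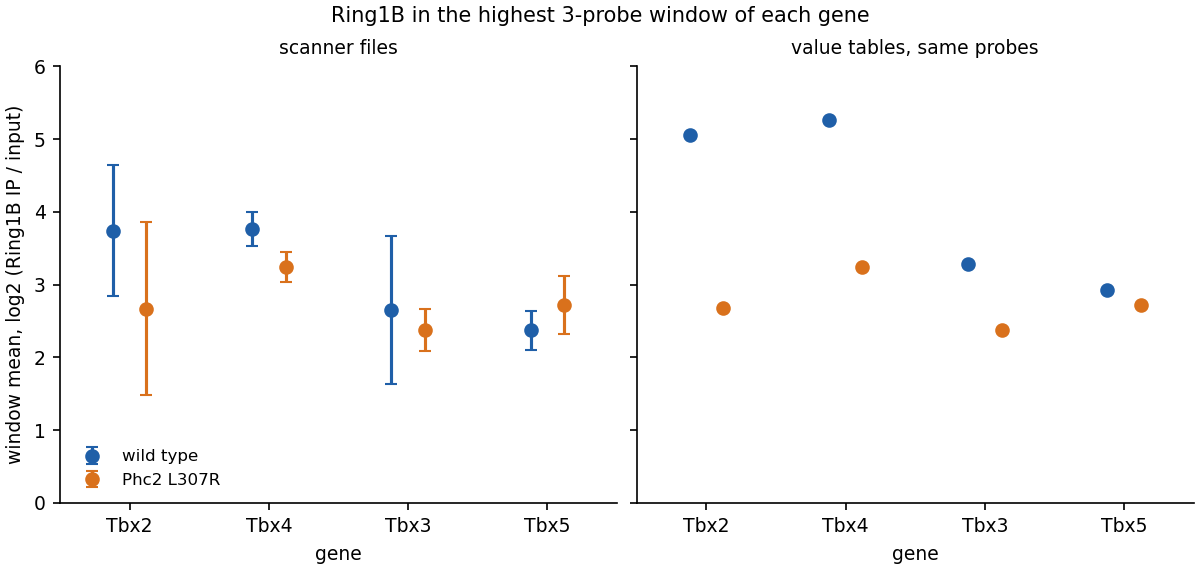
Window means of log2 immunoprecipitate over input for wild type (blue) and Phc2 L307R (orange), from the scanner files on the left (bars are the SD over 3 probes) and from the value tables for the same probes on the right. The Phc2 L307R points lie at the same heights in both panels, while the wild-type points lie higher on the right.

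**Figure D4:**
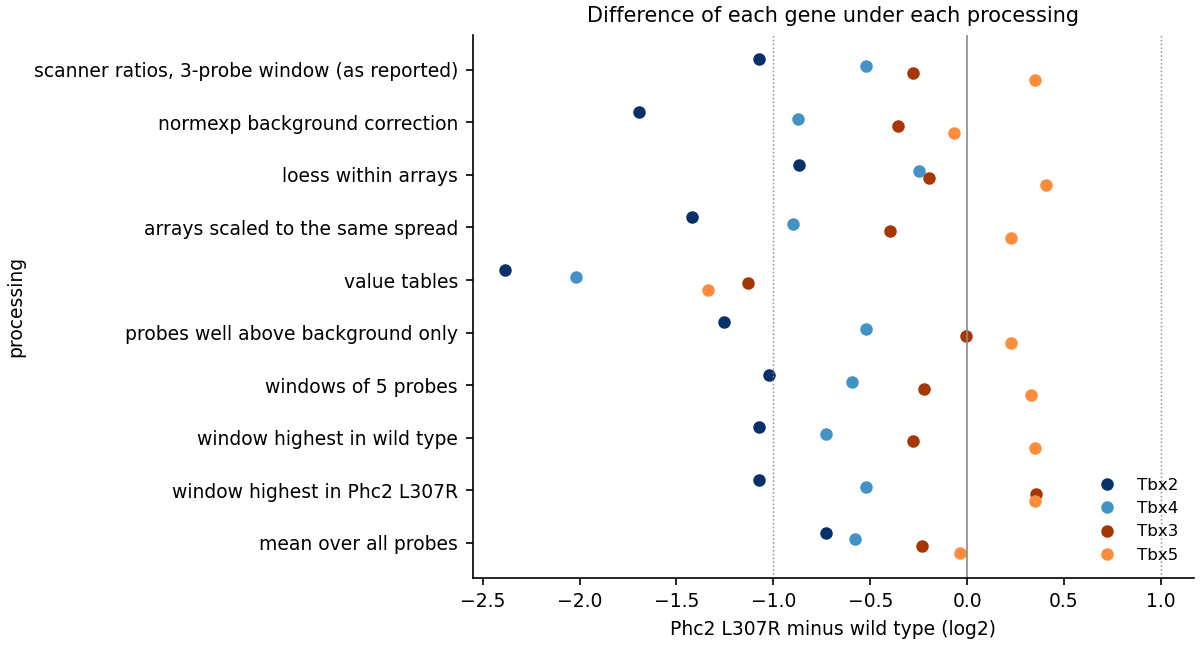
Window difference of each gene, Phc2 L307R minus wild type in log2, under each processing, with dotted lines at -1 and 1. Tbx2 lies between -2.38 and -0.73 and Tbx4 between -2.02 and -0.25, while Tbx3 and Tbx5 have points on both sides of 0.

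The genes around the pairs carried less Ring1B than the pairs, with Lhx5 as the exception. These are the 2 nearest gene names on each side, and they lie far off, from 275 kb (Rbm19) to 1415 kb (Tmem118) away. Before Tbx2, Ppm1d stood at 1.14 in wild type and 0.96 in Phc2 L307R, and Bcas3 at 0.98 and 1.22. After Tbx4, Brip1 stood at 1.26 and 1.37, and Ints2 at 0.75 and 1.07. None of these 4 was called, and their differences ran from -0.18 to 0.32. Before Tbx3, Tmem118 stood at 1.04 and 0.97 and Thrap2 at 1.57 and 1.92. After Tbx5, Rbm19 stood at 0.65 and 0.20. Lhx5, a LIM homeobox gene 589 kb past Tbx5, stood at 2.39 ± 0.47 and 2.00 ± 0.55 and so at the level of Tbx3 and Tbx5. Its difference was -0.39 ± 0.21 on the scanner values and -1.56 in the value tables.

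By distance over the wild-type and Phc2 L307R windows on the same design, the promoters most like each gene were as follows. For Tbx2 they were the homeobox gene Barx2 (distance 0.13), Ikzf3 (0.15) and Hist3h2ba (0.26). For Tbx4 they were Vax1 (0.11), Tcf2 (0.11) and Ebf2 (0.15), of which Vax1 and Tcf2 are homeobox genes. For Tbx3 they were Hoxd3 (0.03), Wwtr1 (0.06) and Cpa1 (0.07). For Tbx5 they included Gabpb1 (0.07) and Hoxa6 (0.08). Each search ran over all other promoters of the design and 2 values a promoter.

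Among the other T-box genes, 12 of 13 were measured (T was not matched) and 9 were bound in wild type. Their wild-type median was 2.75, against 0.90 over all promoters. The highest were Tbr1 (5.12) and Eomes (5.11), T-box factors of the developing cortex, which stood above all 4 genes followed here. Their median difference was 0.06, with 5 of 12 lower in sign, against -0.14 over the promoters bound in either genotype. None of the 10 bound in either genotype was called lower, against 3.01% of all promoters bound in either genotype. Tbx6, a factor of the presomitic mesoderm, was called higher (-0.54 ± 0.54 in wild type, 1.23 ± 0.86 in Phc2 L307R). Higher calls were made at 1.64% of all those promoters. The lowest differences of the list were at Tbx20, a heart factor (4.82 and 4.01, difference -0.82 ± 0.38), and Eomes (-0.50 ± 0.28). The highest after Tbx6 was at Tbx18 (3.16 and 3.92, difference 0.76 ± 0.61). In the value tables the median difference of these genes was -0.49, with 5 called lower and 1 higher. Those tables called 8.25% of 8887 bound promoters lower, and 73.7% of the promoters at 3 or more. They called 52 of the 8887 higher.

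Of the limb bud genes, 27 of 28 were measured, 24 were bound in wild type and 12 stood at 3 or more there. In Phc2 L307R 4 were called lower and none higher, against 3.01% lower and 1.64% higher over all bound promoters. All 4 stood above 3 in wild type. Of the 341 promoters at 3 or more in either genotype, 59 were called lower and 13 higher. The limb bud genes had a wild-type median of 2.54 and a median difference of -0.23. The lowest differences were at Sall4 (3.92 and 2.78, difference -1.14 ± 0.38), a zinc finger gene that Tbx5 regulates in the limb, and at Irx3 (4.07 and 2.98, difference -1.08 ± 0.72). The other two called lower were Irx5 (4.80 and 3.72) and Meis1 (4.09 and 3.09). The highest differences were at Gli3 (0.55 ± 1.18), the mediator of hedgehog signalling, and Sall1 (0.42 ± 0.29). Of the heart genes, 21 of 25 were measured, 14 were bound in wild type and 1 was called lower. This was Nkx2-5, a partner of Tbx5 in the heart (4.96 and 3.49, difference -1.47 ± 0.21). Gata6 followed at -0.99 ± 0.24, and the highest differences among the bound genes of the list were at Isl1 (0.32 ± 0.23), which is also on the limb list, and Hand1 (0.21 ± 1.26). The value tables called 17 limb bud genes and 8 heart genes lower, where 8.25% of 8887 bound promoters and 73.7% of those at 3 or more were called lower.

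**Figure D5:**
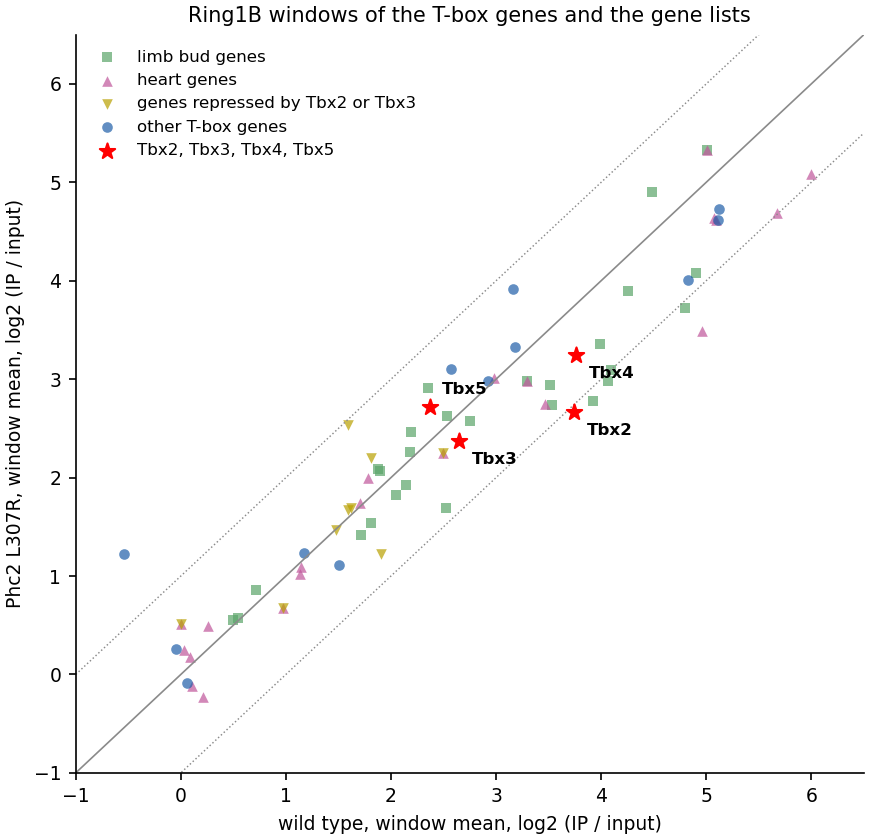
Window means in wild type (x axis) and Phc2 L307R (y axis), log2 immunoprecipitate over input, for the 4 genes (red stars) and the measured genes of each list, with the line of equality and dotted lines 1 above and below it. Tbx2 lies just past the lower dotted line, Tbx4 and Tbx3 lie between it and the diagonal, and Tbx5 lies above the diagonal.

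Of genes that Tbx2 or Tbx3 are known to repress, 9 of 10 were measured, and 7 were bound in each genotype, with wild-type windows of 2.50 at most. None was called on the scanner values. The cell cycle inhibitor gene Cdkn2a stood at 1.59 ± 0.39 in wild type and 2.54 ± 0.18 in Phc2 L307R, a difference of 0.95 ± 0.29 just short of the size rule. The value tables gave -0.61 for Cdkn2a, the opposite sign. Cdkn1a, which encodes another such inhibitor, stood at 1.62 and 1.70. The adhesion gene Cdh1 stood at 1.90 ± 0.18 and 1.23 ± 0.11, a difference of -0.68 ± 0.08. In the value tables it differed by -1.64 and was the 1 gene of this list called lower. Among the others, Ndrg1 differed by 0.08, Mycn by -0.01 and the connexin gene Gja1 by -0.25. The chamber genes Nppa (0.00 and 0.51) and Gja5 (0.98 and 0.67) were not bound in either genotype.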

How the data were processed

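The members and gene lists were chosen with earlier results of these data known. Spot intensity values in the deposited files were read from the scans by Agilent Feature Extraction 10.7.3.1, per the file headers. The same files carry a log10 ratio per spot (Cy5 to Cy3), per the file headers. The value tables that the authors deposited hold log10 values as well, judged from their fit to the scanner values. Their Phc2 L307R columns are close to the scanner ratios minus a constant (r = 0.999 on both designs). How the wild-type columns were made is unknown here. Their column medians, for wild type and Phc2 L307R, are -0.056 and -0.0342 on design 1 and -0.0615 and -0.0393 on design 2. Per the labels, DNA was amplified with T7 RNA polymerase before hybridisation, which can change ratios between fragments.

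Here log10 ratios were turned to log2 and centred on each array's median over its non-control probes (237195 on design 1, 237185 on design 2), less outlier-flagged ones (30 to 61 an array). Windows, calls and lists were computed in Python 3.11.15 (pandas 2.3.3), and normexp (offset 50) and loess with limma 3.58.1 in R 4.3.3. Choosing the window on the mean of both genotypes may favour the noisier Phc2 L307R arrays. The calls were tested on simulated data. Genes named are the 4 members, their 3 nearest promoters, the flanking names, up to 2 bound genes of each list at either end, and the measured genes repressed by Tbx2 or Tbx3. Tbr1, Irx5 and Meis1 were added after their values were seen, and 2 genes that the rule names are not reported here. The number of arrays limits the precision.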

Additional observations from a re-analysis of the deposited data

How the results depend on the processing

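All 36 alternative wild-type levels and all 36 alternative Phc2 L307R levels of the 4 genes stayed at 1 or more. Of 36 alternative differences, 28 kept their sign and their side of the size rule. Some of these picked the same window again, so their value was identical and adds no separate check. This was so at Tbx2 and Tbx5 where either genotype alone chose the window, and at Tbx3 where wild type did. It also held at Tbx4 where Phc2 L307R chose it and with probes well above background only. Tbx3 kept its sign at only -0.008 with probes well above background only. Tbx2 lost its call with loess (-0.87) and for the mean over all probes (-0.73). Tbx3 (-1.13) and Tbx4 (-2.02) gained one in the value tables. Tbx3 turned to 0.35 with the window highest in Phc2 L307R. Tbx5 turned to -0.069 with normexp, -1.34 in the value tables and -0.039 for the mean over all probes. The causes were not tested.

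Over all promoters, 271 were called lower and 148 higher. The counts were 423 lower after scaling the arrays to one spread, 733 and 52 by the value tables, 169 and 29 with probes well above background only, 107 and 47 for 5-probe windows, 467 and 32 where wild type alone chose the window, 90 and 295 where Phc2 L307R chose it, 12 and 2 for means over all probes, and 1212 and 574 with a size rule of 1.5-fold. With normexp 11 were higher. The share of lower probes, tried after seeing the data, changed its side of 90% at Tbx4 with normexp (75.6%) and at Tbx5 in the value tables (95.1%).

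No paired analysis was possible because the title numbers stand for 2 array designs with 0 probes in common and 1 array per genotype on each. Leaving out an array leaves no comparison for the genes on it.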
